A study of Homo sapiens with 6 samples.

Results

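The metallothionein 1 cluster was represented by 4 genes, MT1X, MT1E, MT1M and MT1F. They are the rows of the authors' deposited comparison that carry the names of these paralogs, 4 of 453 listed features. RNA came from LX2, an established human hepatic stellate cell line, in 3 libraries of cells given recombinant GDF15 at 1 ug/ml for 24 h and 3 libraries of untreated cells, with no other treatment named. GDF15 is a hormone-like member of the TGF-beta superfamily that cells release under stress, and the question behind the series is what it does to the liver surroundings in which uveal melanoma forms metastases. Every feature of the authors' deposited table had an unadjusted p under 0.05, so both the table and the members were chosen on the comparison of GDF15 with untreated cells. Their difference between the groups is therefore given as a description, with no test.

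Metallothioneins are small, cysteine-rich cytosolic proteins that hold zinc and copper in metal-thiolate clusters, bind cadmium and react with oxidants. Their genes are switched on by zinc and cadmium through the zinc-sensing factor MTF1, which binds metal response elements in their promoters, and they also respond to glucocorticoids and oxidative stress. In the liver they buffer zinc and are strongly inducible. The MT1 genes arose by tandem duplication, and their products share nearly the same fold and metal-binding residues.

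The members lay in 1 cluster on chromosome 16, all on the plus strand (GRCh38, GENCODE release 29). MT1E (ENSG00000169715) spanned 56625475 to 56627112, MT1M (ENSG00000205364) 56632233 to 56633986, MT1F (ENSG00000198417) 56657694 to 56660698 and MT1X (ENSG00000187193) 56682424 to 56684196. They thus stood within 58.7 kb, counted from the start of MT1E to the end of MT1X. The main transcript of each had 3 exons. Of 11 protein-coding metallothionein genes of the cluster, 8 are of the MT1 type, and 4 of those 8 were listed. MT1A, MT1B, MT1G, MT1H, MT2A, MT3 and MT4, which lie between or beside the members, were not among the listed features and were not analysed here.

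**Figure D1:**
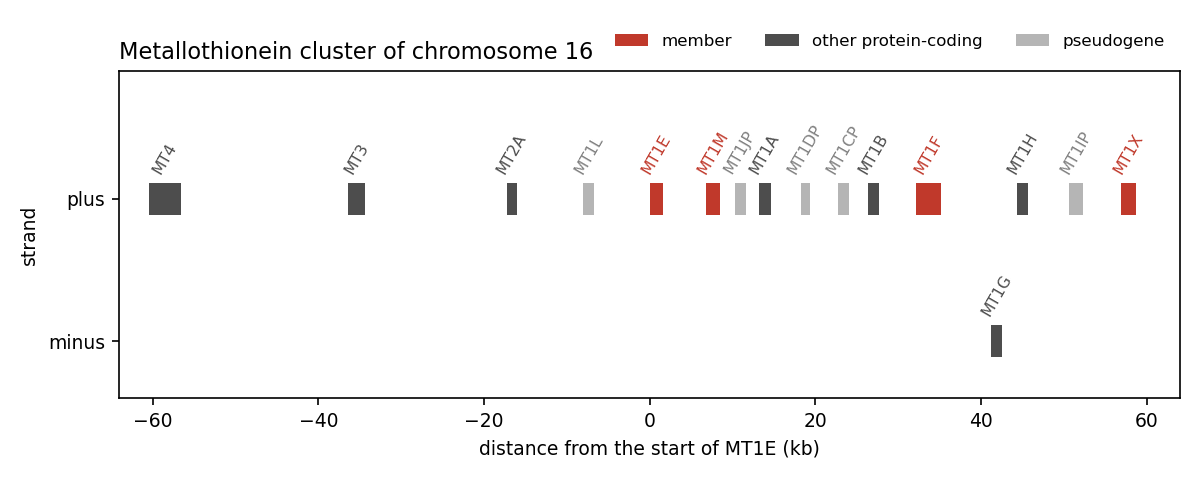
Position of the metallothionein genes of chromosome 16 by distance from the start of MT1E in kb, plus strand above and minus strand below. The 4 members, in red, include the neighbours MT1E and MT1M, and unlisted genes lie between MT1M and MT1F and between MT1F and MT1X.

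The coding sequences are shown because the paralogs can be told apart by short reads only where they differ. Capitals mark the 31 of 186 positions, stop codon included, at which at least 1 of the 4 differs.
MT1X: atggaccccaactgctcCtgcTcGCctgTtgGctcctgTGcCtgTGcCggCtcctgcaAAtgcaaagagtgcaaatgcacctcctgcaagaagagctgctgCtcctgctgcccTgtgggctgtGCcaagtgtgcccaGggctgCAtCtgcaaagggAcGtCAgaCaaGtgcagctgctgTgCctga
MT1E: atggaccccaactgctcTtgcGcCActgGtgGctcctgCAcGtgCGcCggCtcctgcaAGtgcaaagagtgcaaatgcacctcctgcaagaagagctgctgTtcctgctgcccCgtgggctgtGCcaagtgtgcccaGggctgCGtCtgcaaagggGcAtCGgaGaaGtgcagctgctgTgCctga
MT1M: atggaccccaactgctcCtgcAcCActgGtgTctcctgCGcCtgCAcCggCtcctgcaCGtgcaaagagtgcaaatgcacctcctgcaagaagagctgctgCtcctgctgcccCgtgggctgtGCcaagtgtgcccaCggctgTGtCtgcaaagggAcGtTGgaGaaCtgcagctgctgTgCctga
MT1F: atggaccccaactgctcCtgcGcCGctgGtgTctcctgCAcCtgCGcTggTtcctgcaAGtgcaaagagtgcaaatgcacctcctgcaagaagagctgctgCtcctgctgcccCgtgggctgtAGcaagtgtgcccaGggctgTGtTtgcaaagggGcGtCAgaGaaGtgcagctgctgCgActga
Each frame held 61 sense codons, 20 of them for cysteine, the metal-binding residue. Of the 31 variable positions, 18 were the third base of a codon. Identity between coding sequences ran from 88.7% for MT1X and MT1F to 92.5% for MT1E and MT1M.

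Sharing of exact stretches was then counted over the whole main transcripts. Of all 75-base windows of the main transcripts, 0% of MT1X, MT1E, MT1M or MT1F occurred unaltered in another of the 4. At 50 bases the shares were 0.998% for MT1X, 0.153% for MT1E, 1.92% for MT1M and 2.496% for MT1F. Windows shared with any other gene were more frequent for MT1X, at 31.6% of 75-base windows, against 0.794% for MT1E, 0.132% for MT1M and 0% for MT1F. For MT1X the genes that shared them were AC026461.1, MT1G and MT1XP1, for MT1E MT1JP and MT1P3, and for MT1M MT1JP. AC026461.1 is a non-coding transcript on the same strand that begins inside MT1X, and 321 exon bases belong to both. The sources used here state neither read length nor the handling of reads that match several genes, and the part of shared reads in the values was not tested.

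Of the 4 members, MT1X had an entry in the table of promoters from RefSeq (GRCh38.p14). The stretch shown is chr16:56682220-56682423, plus strand, which ends before the first annotated exon base. It is shown because the metal response element is the textbook element of this family. Whether the element bears on the members' shared course was not tested.
MT1X promoter: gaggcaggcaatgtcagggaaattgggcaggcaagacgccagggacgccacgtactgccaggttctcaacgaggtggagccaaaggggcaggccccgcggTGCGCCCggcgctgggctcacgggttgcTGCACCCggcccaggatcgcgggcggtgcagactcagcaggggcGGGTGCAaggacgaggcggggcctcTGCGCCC
Capitals mark matches to the core of the metal response element, searched as TGCACNC and TGCGCNC on both strands, and no 2 of these matches overlapped. The window of 204 bases held 4 matches. At least 1 match was present in 20.1% of the same window of 35116 promoters, and 4 or more in 0.222%. Other elements tied to textbook inducers were searched on both strands of the same window. The antioxidant response element core, TGACNNNGC, had 1 match, as 8.55% of promoters had at least 1. The hypoxia response element core, ACGTG or GCGTG, had 1 match, with at least 1 in 36.5% of promoters. The glucocorticoid receptor motif AGAACA had 0 matches, with at least 1 in 10.3% of promoters, which says only that these letters are not in this window. The unlisted relatives MT2A, MT1H, MT1B and MT4 had 6, 7, 3 and 3 matches in this window, so matches were not particular to the listed gene. A match is a run of letters and no evidence of binding here.

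All 4 paralogs had lower mean values with GDF15 than without, the groups overlapped for each of them, and a single untreated library, replicate 2, held most of the untreated signal. Values are the authors' normalized counts, that is reads divided by 1 factor per library. All 4 were at least 2-fold lower by the means, against 3.75% of the listed features. In the authors' deposited table their log2 fold changes took places 1, 2, 4 and 5 from the bottom, with RPL37P2 at place 3. Their unadjusted p-values were 0.0180 for MT1X, 0.0330 for MT1E, 0.0287 for MT1M and 0.0245 for MT1F in the authors' deposited table, whose highest listed p was 0.04996. The adjusted p there was 0.911 for every feature, so 0 of the 4 and 0.0% of the listed features passed 0.05. Before adjustment all 4 were under 0.05, as was every listed feature, which the listing itself sets.

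MT1E, the most abundant of the 4, had 932, 182 and 141 normalized counts in GDF15 replicates 1, 2 and 3, against 480, 6095 and 1176 in untreated replicates 1, 2 and 3. Untreated replicate 2 was far above every other library, and GDF15 replicate 1 lay above untreated replicate 1, so the groups overlapped. The means were 418 ± 445 with GDF15 and 2584 ± 3061 in untreated cells (SD, n = 3 each), a log2 ratio of means of -2.63.

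MT1X, the paralog with the lowest fold change of the whole list, had 250.3, 55.1 and 61.0 normalized counts in GDF15 replicates 1, 2 and 3. Untreated replicates 1, 2 and 3 had 85.0, 3139 and 374.5. Again untreated replicate 2 was the highest and untreated replicate 1 lay among the GDF15 libraries. Means were 122 ± 111 with GDF15 and 1199.7 ± 1686 in untreated cells (SD, n = 3 each), with a log2 ratio of -3.30.

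MT1M and MT1F had lower group means than MT1X and MT1E, and values close to each other. MT1M had 146, 61.8 and 42.1 normalized counts in the GDF15 libraries and 96.4, 860.4 and 188 in the untreated libraries. MT1F had 131, 47.2 and 44.3 with GDF15 and 102, 695.5 and 165 in untreated cells. For both, GDF15 replicate 1 was above untreated replicate 1 and below untreated replicates 2 and 3. The log2 ratio of means was -2.20 for MT1M (83.3 ± 55.1 with GDF15 and 382 ± 417 in untreated cells) and -2.11 for MT1F (74.3 ± 49.5 and 321 ± 326, SD, n = 3 each).

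**Figure D2:**
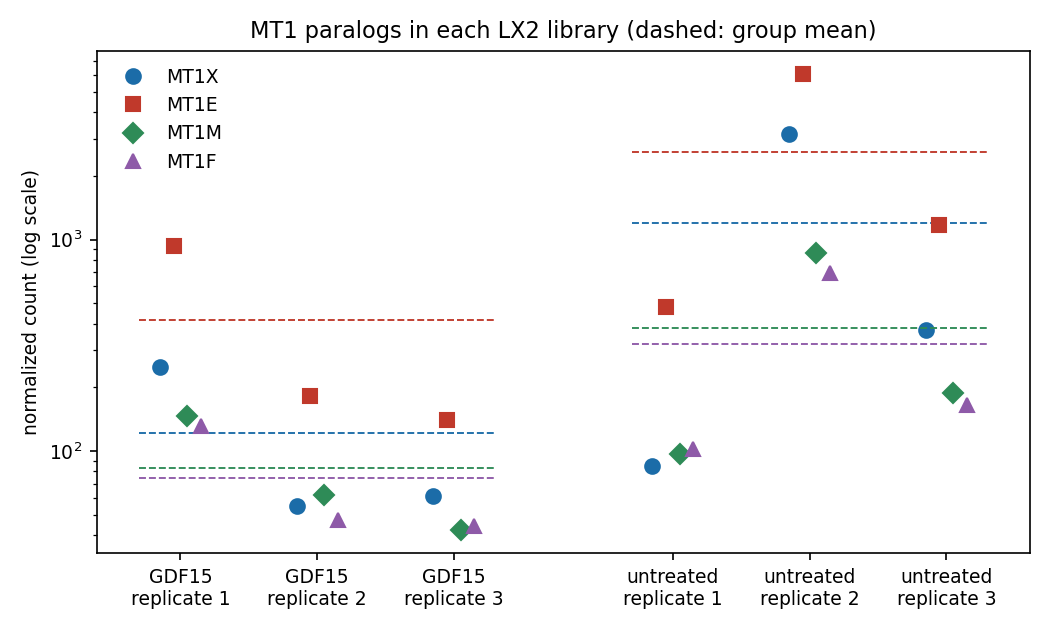
Normalized counts (log scale) of the 4 paralogs in each library, GDF15 replicates at left and untreated replicates at right, with dashed lines at the group means. Untreated replicate 2 stands above every other library for each paralog, and untreated replicate 1 lies below GDF15 replicate 1.

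Of the listed features, 67.8% had groups that did not overlap, but 0 of the 4 paralogs did. The order of the libraries was nearly the same for each paralog. Untreated replicate 2 came first, then untreated replicate 3, GDF15 replicate 1 and untreated replicate 1, with GDF15 replicates 2 and 3 last. MT1X differed from the other 3 only in having GDF15 replicate 2 at the bottom, whereas GDF15 replicate 3 was lowest for the others. This order of the first 4 libraries, noted after the values were seen, was found in 1.32% of the listed features, 6 in all, the 4 members with CYP1A1 and TTC29. Untreated replicate 2 held the highest value for all 4 members and for 34.0% of the listed features, 154 in all. A peak there was thus not particular to the members. The 34.0% is over higher and lower features alike. Of the 453 listed features 179 were lower by the means, as the members were, and the share among these was not counted here. CYP1A1, the aryl hydrocarbon receptor target that oxidizes polycyclic compounds, had 194, 165 and 144 normalized counts in the GDF15 libraries and 186, 463 and 397 in the untreated ones.

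Without untreated replicate 2 the log2 ratio of means was -0.91 for MT1X, -0.99 for MT1E, -0.77 for MT1M and -0.84 for MT1F. The median over the 179 listed lower features was -0.59 with all 6 libraries and -0.34 with that one left out. Among these lower features was ERCC-00157, an added spike-in RNA, at -0.90 with all 6 libraries and -0.72 with that one left out. Untreated replicate 2 held 87.2% of the summed untreated normalized counts of MT1X, 78.6% of MT1E, 75.1% of MT1M and 72.3% of MT1F. Without GDF15 replicate 1, the highest library of its group, the log2 ratios went the other way, to -4.37 for MT1X, -4.001 for MT1E, -2.88 for MT1M and -2.81 for MT1F. With both libraries left out, a choice made after seeing the values, they were -1.99, -2.36, -1.45 and -1.54 in that order. The size of the difference thus depended on which libraries entered, while each of these ratios stayed below 0. As the members were listed for being lower, that sign is no separate evidence.

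**Figure D3:**
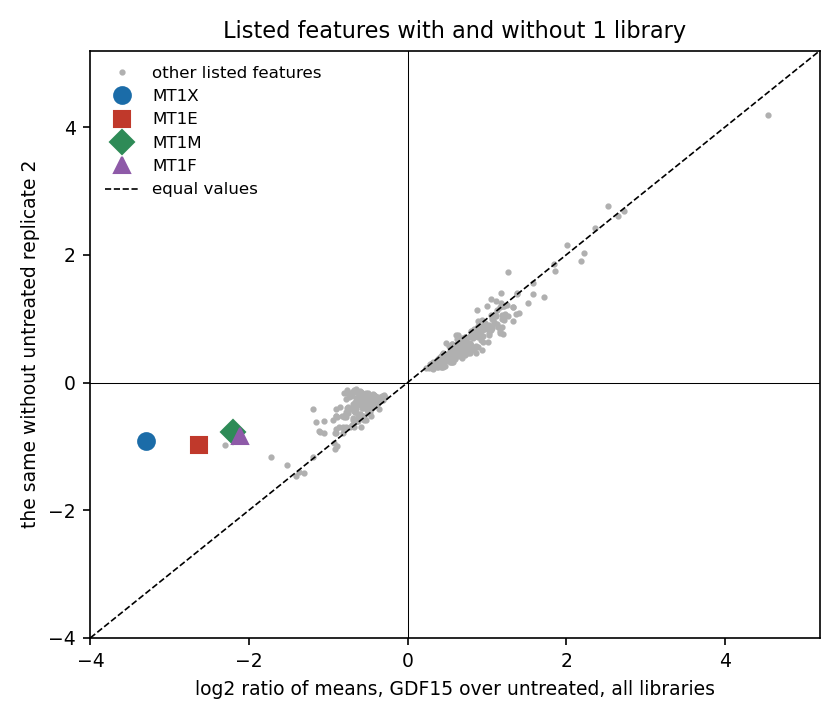
Log2 ratio of means, GDF15 over untreated, for the 453 listed features with all libraries (horizontal) and without untreated replicate 2 (vertical), with a dashed line at equal values. The 4 paralogs lie at the far left, between -3.30 and -2.11 with all libraries, and between -0.99 and -0.77 without that library. RPL37P2 lies among them, at -2.30 with all libraries and -0.97 without that library.

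The spread between libraries of the same group was wide for these genes. Untreated libraries spanned 36.9-fold for MT1X, 12.7-fold for MT1E, 8.92-fold for MT1M and 6.85-fold for MT1F, where the median listed feature spanned 1.57-fold. Listing by p favours features with a small spread within groups, so this median is no neutral background. GDF15 libraries spanned 4.55-fold, 6.62-fold, 3.46-fold and 2.96-fold for the same genes, for which the median over listed features was not computed here. Over all 6 libraries MT1X spanned 57.03-fold, second of the 453 features, and MT1E 43.3-fold, MT1M 20.4-fold and MT1F 15.7-fold took places 3, 5 and 12. The lowest value among the members corresponded to 38 reads, for MT1M in GDF15 replicate 3, and the highest to 6432, for MT1E in untreated replicate 2, when values were divided by the step of their library. Bulk RNA does not tell fewer expressing cells from less RNA per cell.

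The paralogs followed each other from library to library, with unequal amplitude. On log2(normalized count + 1) over 6 libraries, Pearson's r ran from 0.973 for MT1X and MT1E to 0.993 for MT1M and MT1F, and Spearman's rho was 0.943 for the pairs with MT1X and 1.00 for the other 3. These values are a description with no test, since all 4 genes were listed for the same difference between the same libraries, which in part sets them. After each library was set against the mean of its own group, r was 0.966 to 0.990. Without the 2 libraries farthest from the median, untreated replicate 2 and 1 of the GDF15 libraries, r was 0.89 to 0.991 over the remaining 4.

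**Figure D4:**
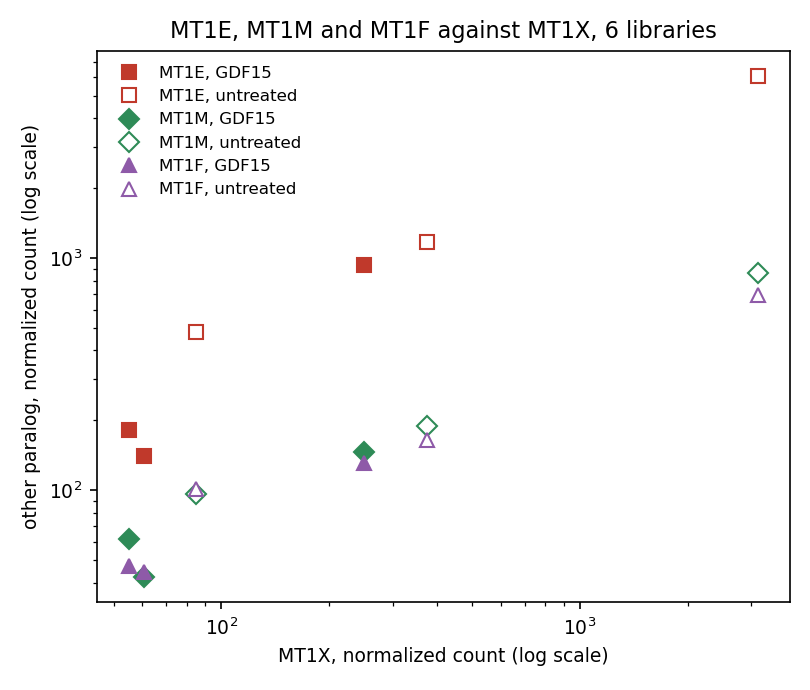
MT1E, MT1M and MT1F against MT1X in normalized counts, both axes on a log scale, filled points for GDF15 and open points for untreated libraries. The points of each paralog follow MT1X across the 6 libraries, and untreated replicate 2 lies alone at 3139 for MT1X.

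MT1X had the steepest course over all 6 libraries, which rested on untreated replicate 2. Within the GDF15 libraries MT1E spanned 6.62-fold and MT1X 4.55-fold. Without untreated replicate 2 the log2 ratio of means was -0.99 for MT1E and -0.91 for MT1X. Within a library its normalized count was 1.91, 1.17 and 1.38 times that of MT1F in GDF15 replicates 1, 2 and 3, against 0.837, 4.51 and 2.27 times in untreated replicates 1, 2 and 3. In these ratios MT1X stood below MT1F in untreated replicate 1 and well above it in untreated replicate 2, and the groups overlapped. On the log2 scale a unit of MT1F went with 1.497 units of MT1X and 1.37 of MT1E. MT1M and MT1F kept the steadiest ratio, with MT1M at 1.11, 1.31 and 0.95 times MT1F in the GDF15 libraries and 0.949, 1.24 and 1.14 times in the untreated ones.

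As a result the make-up of the summed signal differed between libraries. MT1E supplied 63.9%, 52.6% and 48.8% of the 4-gene sum in GDF15 replicates 1, 2 and 3 and 62.9%, 56.5% and 61.8% in untreated replicates 1, 2 and 3. MT1X supplied 17.2%, 15.9% and 21.2% with GDF15 and 11.1%, 29.1% and 19.7% in untreated cells. The share of MT1X was lowest in untreated replicate 1 and highest in untreated replicate 2, so the 2 extremes lay in the same group. MT1M and MT1F together made up the rest, with MT1F at 6.45% in untreated replicate 2 and 15.4% in GDF15 replicate 3.

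**Figure D5:**
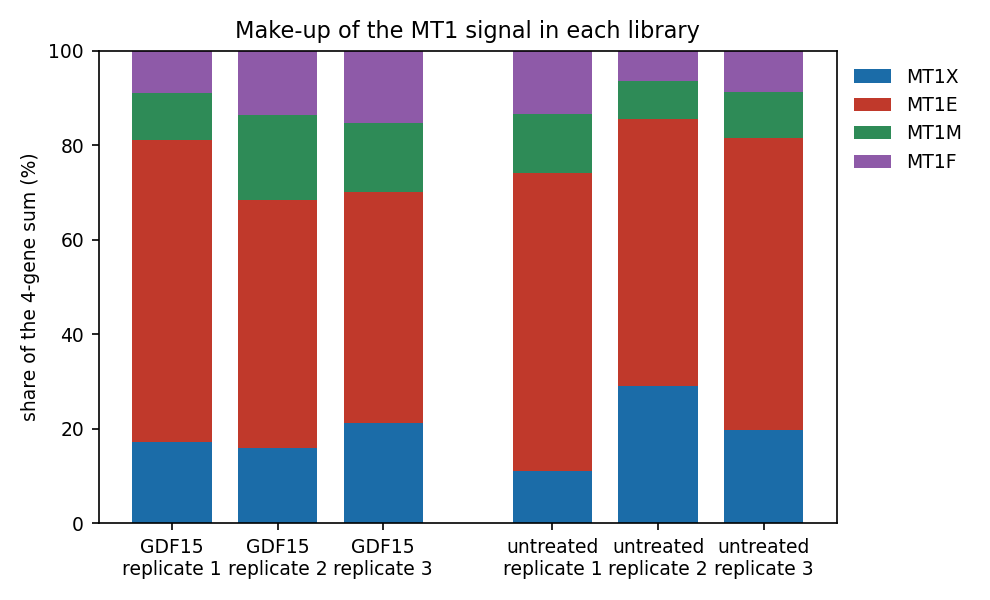
Share of each paralog in the sum of the 4 normalized counts, in percent, for each library. MT1E is the largest part in every library, and the MT1X part runs from 11.1% in untreated replicate 1 to 29.1% in untreated replicate 2.

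The order of the paralogs' levels is independent of how they were chosen and was tested within libraries. Per kb of exon, MT1E had 886, 173 and 134 normalized counts in the GDF15 libraries and 456, 5794 and 1118 in the untreated ones, and it was the highest of the 4 in 6 of 6 libraries. On log2(normalized count + 1) less log2 of length, MT1E exceeded MT1X by 2.40 ± 0.54, MT1M by 2.12 ± 0.53 and MT1F by 3.27 ± 0.58 (SD, n = 6). MT1M exceeded MT1F by 1.15 ± 0.19 in 6 of 6 libraries. Each of these 4 differences had p = 0.0312, the smallest that 6 libraries allow, and an adjusted p of 0.0469 over 6 pairs (two-sided exact permutation test of paired differences). MT1X was not separated from MT1M (difference -0.28 ± 0.77, adjusted p = 0.312, exact permutation) or from MT1F (0.87 ± 0.85, adjusted p = 0.0750, exact permutation).

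The place of MT1E did not depend on the length used, but the places below it did. The exon lengths of MT1X and MT1F, 1773 and 1889 bases, include retained introns. With the main transcripts of 450 bases for MT1X, 704 for MT1E, 829 for MT1M and 690 for MT1F, a choice made after seeing this, MT1X stood above MT1M by 1.52 and above MT1F by 1.40 on the log2 scale in 6 of 6 libraries (adjusted p = 0.0375 each, exact permutation). MT1M and MT1F then differed by -0.12 ± 0.19 (adjusted p = 0.250, exact permutation). MT1E still exceeded MT1X, by 1.00 on the log2 scale on average. They were closest in untreated replicate 2, at 8658 for MT1E and 6977 for MT1X per kb of main transcript. There MT1X minus MT1E was -0.31 on the log2 scale. Windows shared with other genes were more frequent for MT1X than for MT1E, and the effect of shared reads on this order was not tested.

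The table holds a small part of all genes, so that most members of any gene list are missing from it, and the following counts are a description. Of 15 other metallothionein genes and pseudogenes, 9 copper-handling genes and 14 heat shock genes, 0 were listed. Of 25 genes of zinc sensing and transport, MTF1 included, 1 was listed, as higher. This was SLC39A13, a zinc transporter of the secretory pathway, with 1291, 1267 and 1350 normalized counts with GDF15 and 1025, 828 and 1169 in untreated cells, without overlap. Its lowest value was in untreated replicate 2, where the paralogs had their highest. How many listed features had their lowest value in that library was not counted here.

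Of 25 genes of NRF2 and the oxidative stress response, 2 were listed, both lower, and of 11 glucocorticoid response genes 2, both higher. GCLM, which encodes the modifier subunit of the first enzyme of glutathione synthesis, had 566, 609 and 590 normalized counts with GDF15 and 573, 1352 and 904 in untreated cells. SLC7A11, the cystine importer, had 533, 550.5 and 524 with GDF15 and 648, 1088 and 1093 in untreated cells, without overlap. Both were higher in untreated replicates 2 and 3 than in replicate 1, as the MT1 paralogs were. How many listed features share this was not counted here. Untreated replicate 2 was the highest library for GCLM, as for 34.0% of the listed features. For SLC7A11 it was untreated replicate 3. A link of these genes to the paralogs was not tested. PER1, a clock gene induced by glucocorticoids, had 843, 814.5 and 892 with GDF15 and 699.9, 366 and 667 in untreated cells, with the lowest value in untreated replicate 2. CEBPD, a transcription factor of the acute phase response, had 1377, 397 and 415 with GDF15 and 263, 290.0 and 286 in untreated cells. The median log2 ratio of means was -0.75 for the first 2 genes and 0.97 for the other 2, against 0.47 over all listed features.

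The 10 features whose course was most like the summed MT1 signal were taken from 412 named features with a mean of at least 20 normalized counts. Spike-in and Y-linked features were left out. The ranking was by Pearson's r of log2 values over 6 libraries. They were UBE2D4, HMGB1P5, TTC29, AC138207.2, AC004067.1, APLF, IGFBP6, RPL14P1, SKA1 and RPL7P9, with r from 0.970 to 0.933. The eleventh had 0.930, so the group has no sharp edge, and 23 features had r above 0.9. The median was 0.795 over the lower features among the 412 and -0.22 over all 412. All 10 were lower by the means, and several are pseudogenes or clone-named transcripts. Their amplitude was far smaller than that of the paralogs. UBE2D4, a ubiquitin-conjugating enzyme gene, had 144, 126 and 120 normalized counts with GDF15 and 152, 216 and 166 in untreated cells. IGFBP6, whose product binds insulin-like growth factor 2, had 1773, 1739 and 1327 with GDF15 and 1608, 3271 and 2195 in untreated cells. TTC29 had the widest course of the 10, with 18.6, 8.99 and 9.98 with GDF15 and 17.6, 67.3 and 38.8 in untreated cells.

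The samples carry the cell type label epithelial, although the design speaks of stellate cells. Of 15 stellate markers 1 was listed, PDGFRA at 50.7, 24.7 and 28.8 normalized counts with GDF15 and 13.5, 19.9 and 12.7 in untreated cells, and of 12 epithelial and hepatocyte markers 0 were listed. Unlisted markers were not analysed here, so the label could not be checked against them. Separate cultures are not named in the labels, so p-values here measure a spread between libraries that may be technical. The summed normalized counts of the listed features were 322718 to 470046 in GDF15 libraries and 279332 to 317726 in untreated libraries, which cover a selected part of each library and leave the full depth unknown.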

How the data were processed

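Poly(A) RNA of 6 LX2 libraries was sequenced, with ERCC spike-in RNA added, per the labels' protocols. The submitters' processing notes name Trimmomatic 0.36, STAR 2.5.2b, featureCounts, Subread 1.5.2, DESeq2 and build GRCh38, with no order or settings, while annotation and use of strand are not stated there. The authors deposited 453 features with a log2 fold change of GDF15 over untreated, unadjusted and adjusted p-values, and a signal column per library. In each deposited signal column 100% of values were multiples of 1 step per library, within 0.001 of a step, as division of reads by 1 factor gives. Such a factor corrects neither length nor GC content. As unlisted features are not at hand, no fit across all genes could be made.

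Means, SDs and log2 ratios of means were computed with 3 libraries per group, with Python 3.11.15, pandas 2.3.3 and numpy 2.4.6. Levels between paralogs were compared per kb of GENCODE release 29 exon with a pseudocount of 1. Exact permutation tests and the ranking by likeness were tested on simulated data. No p is given for correlations between paralogs, because the genes were listed for a shared difference. The members and lists were chosen with earlier results of these data known. Genes named in the text are the members, every listed gene of 8 gene lists, and the 10 features most like the summed signal. RPL37P2, CYP1A1, the spike-in ERCC-00157 and the order of the libraries were singled out after their values were seen. Alternatives were other pseudocounts, lengths, minimum means, a rescaling, ratios of same-numbered libraries, deviations from group means and each library left out in turn.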

Additional observations from a re-analysis of the deposited data

How the results depend on the processing

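The log2 ratio of means of the summed signal was -2.68, and it stayed below 0 under all 12 alternatives, between -3.82 and -0.93, both found by leaving out a single library. The pairwise correlation was at least 0.973 with all libraries, and its lowest value ran from 0.920 to 0.988 when a library was left out. Pairs of paralogs separated in level per length numbered 4. This count was 0 to 0 when a library was left out and 0 with no length, because 5 libraries cannot give a p under 0.0625 and 3 pairs at the smallest p miss 0.05 after adjustment. MT1X minus MT1M was 0.63 with no length and 1.52 with main transcripts, and MT1M minus MT1F was -0.12 with main transcripts, signs opposite to those with exon lengths. Of the 10 features most like the sum, 3 to 7 were kept when a library was left out and 5 with a minimum mean of 100. Whether the replicate numbers pair the libraries could not be told from 3 libraries per group. Deviations from group means of same-numbered libraries correlated at 0.11, 0.22 and -0.05 over the listed features. GDF15 replicates 1 and 2 correlated best with their own number, and GDF15 replicate 3 with untreated replicate 2, at 0.04. The mean log2 ratio of same-numbered libraries was -2.25 for the sum, as was the unpaired difference of means of log2(normalized count + 0.1). Both are the same quantity by arithmetic, apart from the pseudocount, so their likeness says nothing about pairing. The log2 ratio of the sum was 0.94, -4.96 and -2.72 for replicate numbers 1, 2 and 3, so number 1 went the other way. With deviations from group means the lowest r was 0.966. The cause of these shifts was not tested where none is named. The members' values correspond to at least 38 reads each, while full depth and the split of reads between overlapping genes are unknown.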
